A study of Mus musculus with 12 samples.

Results

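The values below cover 8 mouse genes of cytochrome P450 subfamily 3A metabolism in liver: the enzymes Cyp3a11, Cyp3a13, Cyp3a16, Cyp3a25, Cyp3a41a and Cyp3a44, the receptor gene Nr1i2 and the electron donor gene Por. They were found by gene name among 41174 probes of an Agilent two-colour array, which gave 10 probes, and 9 of these 10 were among the 21490 probes counted as measured. Measured means that the scanner software marked the sample colour as well above background on all 3 arrays of some group. All 8 genes kept at least 1 measured probe. Cyp3a25 has a pair of measured probes, and the second Cyp3a44 probe (A_52_P366803) was not measured. No other Cyp3a gene has a probe with its name on the array.

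The samples were RNA from male mice, from a source labelled as liver hepatocytes, in 4 groups of 3 arrays. The groups were Cyp1b1 null mice on a high-fat diet, C57BL6/J wild-type mice on a high-fat diet, Cyp1b1 null mice on a low-fat diet and C57BL6/J wild-type mice on a low-fat diet. Cyp1b1 encodes another cytochrome P450, and the labels give no tissue restriction, promoter or clone for its loss. All mice went onto a diet with 60% or 10% fat at weaning at 3 weeks and were killed at 14 weeks. Each array compared its Cy3-labelled sample with a Cy5-labelled pool of wild-type low-fat liver RNA, the dyes were never swapped, and each value below is the log2 ratio of a sample to that pool, in which 0 is the level of the pool. The label of each array mentions 3 pooled samples and does not say whether the replicates came from separate animals, so the p-values rest on the spread among arrays, which may be technical. In such bulk samples, fewer cells of a type and less RNA per cell cannot be told apart.

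CYP3A enzymes sit in the endoplasmic reticulum of hepatocytes and oxidise steroids, bile acids and many drugs. Nr1i2 encodes the pregnane X receptor (PXR), which binds such compounds, pairs with retinoid X receptors and switches on Cyp3a genes, with Cyp3a11 as its best known target in mouse liver. Por encodes cytochrome P450 oxidoreductase, which hands electrons from NADPH to every microsomal cytochrome P450. In mouse liver Cyp3a11 is a main adult form, Cyp3a25 is also an adult form, Cyp3a13 is better known from the intestine, and Cyp3a16, Cyp3a41a and Cyp3a44 are known for higher expression in females or young animals.

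The probes and promoters are shown because the Cyp3a genes are close paralogs, and a shared pattern has to be read beside how alike the sequences are. All 10 probes are 60 bases long. The following 3, read from the scanner files, have an open reading frame over their whole length and carry the results for Cyp3a11, Cyp3a44 and 1 of the Cyp3a25 probes.
Cyp3a11 probe A_51_P355301: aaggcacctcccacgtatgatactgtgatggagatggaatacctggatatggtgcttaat
Cyp3a44 probe A_52_P571006: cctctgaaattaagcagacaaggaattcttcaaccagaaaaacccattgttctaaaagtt
Cyp3a25 probe A_52_P380314: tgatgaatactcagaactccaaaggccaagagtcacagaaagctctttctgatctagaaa
Transcript sequences were not used here, so how far a probe also binds the RNA of a near-identical paralog, such as Cyp3a41b for the Cyp3a41a probe, was not tested.

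Promoters of all 8 members were taken from RefSeq on build GRCm38.p6. The 250 bases before the start are printed for the 4 genes whose ratios to the pool were lowest in null livers and, for contrast, for Cyp3a25. All 5 lie on the minus strand of chromosome 5, in the order Cyp3a16 (chr5:145469724-145469973), Cyp3a41a (chr5:145720137-145720386), Cyp3a44 (chr5:145805875-145806124), Cyp3a11 (chr5:145879855-145880104) and Cyp3a25 (chr5:146009619-146009868). Capitals mark matches, on either strand, to AGGTCA or AGTTCA, core sequences bound by nuclear receptors, or to CAAAGTCCA, a sequence of the kind bound by HNF4A. These 3 motifs were chosen with the sequences in view.
Cyp3a11: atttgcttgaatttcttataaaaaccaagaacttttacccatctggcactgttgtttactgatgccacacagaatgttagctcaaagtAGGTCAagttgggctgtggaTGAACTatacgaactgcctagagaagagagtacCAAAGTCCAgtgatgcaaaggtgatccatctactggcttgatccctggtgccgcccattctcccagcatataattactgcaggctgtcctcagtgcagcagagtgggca
Cyp3a16: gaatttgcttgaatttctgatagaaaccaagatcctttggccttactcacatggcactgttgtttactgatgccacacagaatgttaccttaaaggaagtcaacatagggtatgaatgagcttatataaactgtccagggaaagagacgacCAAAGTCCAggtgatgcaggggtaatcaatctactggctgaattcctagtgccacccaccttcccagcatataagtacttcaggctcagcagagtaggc
Cyp3a41a: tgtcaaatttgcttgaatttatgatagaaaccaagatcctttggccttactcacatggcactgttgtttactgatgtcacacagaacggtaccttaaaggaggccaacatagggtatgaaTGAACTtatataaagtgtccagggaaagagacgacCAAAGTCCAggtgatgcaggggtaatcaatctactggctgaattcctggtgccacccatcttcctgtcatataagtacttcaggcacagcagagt
Cyp3a44: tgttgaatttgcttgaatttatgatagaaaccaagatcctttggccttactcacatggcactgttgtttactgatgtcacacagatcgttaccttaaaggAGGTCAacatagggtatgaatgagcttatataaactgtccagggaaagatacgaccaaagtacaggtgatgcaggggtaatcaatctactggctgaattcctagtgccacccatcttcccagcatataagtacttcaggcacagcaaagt
Cyp3a25: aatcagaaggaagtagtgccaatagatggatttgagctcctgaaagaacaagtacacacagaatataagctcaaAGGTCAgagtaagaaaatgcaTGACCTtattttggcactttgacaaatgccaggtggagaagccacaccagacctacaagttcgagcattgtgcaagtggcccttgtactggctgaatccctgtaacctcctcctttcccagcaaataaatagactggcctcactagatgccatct
Over these 250 bases, aligned end to end, Cyp3a41a and Cyp3a44 were identical at 94.4% of positions, Cyp3a16 and Cyp3a44 at 92.9%, and Cyp3a16 and Cyp3a41a at 90.9%. Cyp3a11 shared 76.2% with Cyp3a16 and 71.7% with each of Cyp3a41a and Cyp3a44. Cyp3a25 shared only 49.8% to 52.7% with these 4 genes, and the Cyp3a13 promoter shared 52.7% to 56.2% with them. For scale, Nr1i2 and Cyp3a11 promoters, which have no family relation, were identical at 44.3%.

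CAAAGTCCA stood in the windows of Cyp3a11, Cyp3a16 and Cyp3a41a, 3 of the 6 Cyp3a promoters, and in 0.381% of 27025 gene promoters of the same length. AGGTCA was found in Cyp3a11, Cyp3a44 and, at 2 places, Cyp3a25, against 13.8% of all promoters. AGTTCA was found in Cyp3a11 and Cyp3a41a, against 11.9% of all promoters. Of the 6 Cyp3a windows, the Cyp3a13 one held no match, and no match was found for Nr1i2 or Por. The motifs were chosen with these windows in view and the windows belong to paralogs, so the shares do not measure enrichment. A match describes these letters and does not show that a factor binds.

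As a check of the series, the Cyp1b1 probe A_51_P255456 was brighter in livers labelled null. Its log2 ratios ran from 0.65 to 1.68 in null high-fat livers and from -0.88 to -0.13 in wild-type high-fat livers, and from 1.58 to 1.68 in null low-fat livers and from -1.11 to 0.16 in wild-type low-fat livers. The sources used here do not place this probe inside or outside the deletion, so it does not check the labels, and null means labelled null below. Per array, 18375 to 23439 probes were well above background in the sample colour. Hepatocyte markers were well above background on every array for 10 of the 10 listed genes with a probe, and although the source label says hepatocytes, markers of other liver cells were well above background too: 12 of 12 for Kupffer cells, 10 of 11 for stellate cells, 9 of 9 for endothelium, 5 of 7 for bile duct and 5 of 8 for lymphocytes, where Cd79a was below that level on every array. Arrays were read in 3 scans: scan 1 holds 6 arrays, scan 2 holds 4, and scan 3 holds 2, both wild type. Pairs of arrays from different groups, compared by how each deviated from its group mean, had a median r of 0.37 within a scan and -0.18 between scans. Wild-type low-fat arrays 1 and 2 stand apart. On array 1 the summed Kupffer marker signal was 70830.5, against 16256.2 and 33352.9 on arrays 2 and 3 of its group, and the stellate sum was 45062, against 12867.8 and 11681.9. Array 2 was the lowest of its group for every measured member probe but that of Nr1i2, by the widest gaps for 4 of the Cyp3a genes. The main results are therefore given with and without it.

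Cyp3a16, Cyp3a41a, Cyp3a44 and Cyp3a11 shared a pattern in which null livers of both diets lay far below the pool, wild-type high-fat livers lay between, and wild-type low-fat livers were split. At low fat the null livers held 0.242 times the wild-type level of Cyp3a16 and 0.280 times that of Cyp3a44, as fitted means of probes with no saturated spot. With all 12 arrays none of these differences passed limma's adjusted threshold of 0.05. Without wild-type low-fat array 2 all 4 passed it. They were among 28 of 21490 measured probes that then passed, where a total of 4 passed with all 12 arrays.

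Cyp3a16 is known from fetal, newborn and female mouse liver. Its log2 ratios were -2.54, -2.36 and -2.85 in null high-fat livers and -1.01, -1.82 and -1.13 in wild-type high-fat livers. At low fat they were -2.76, -2.84 and -2.28 in null livers and 0.11, -2.03 and 0.18 in wild-type livers. All 6 null arrays were lower than all 6 wild-type arrays, and wild-type low-fat array 2 was the lowest of the wild-type arrays. The order of the group means, lowest first, was null low fat (-2.63 ± 0.31), null high fat (-2.58 ± 0.24), wild-type high fat (-1.32 ± 0.44) and wild-type low fat (-0.58 ± 1.25; SD, n = 3 each). Of these neighbours, the null groups differed by less than their spread, as did the wild-type groups, and the null and wild-type high-fat groups did not overlap.

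Cyp3a41a, a form that is predominant in adult female liver, behaved almost the same. It had -2.20, -1.86 and -2.26 in null high-fat livers and -0.62, -1.35 and -0.84 in wild-type high-fat livers. In null low-fat livers it had -2.38, -2.37 and -2.02, and in wild-type low-fat livers 0.49, -1.84 and 0.52. The highest null value, -1.86, lay just under the lowest wild-type value, -1.84, so the printed values of the genotypes did not overlap. Group means were -2.26 ± 0.20 in null low-fat, -2.10 ± 0.21 in null high-fat, -0.94 ± 0.38 in wild-type high-fat and -0.28 ± 1.36 in wild-type low-fat livers (SD, n = 3 each). The sample channel was saturated for this probe on wild-type low-fat array 1, and the reference channel on the scan 2 arrays of both high-fat groups. In these male mice its sample signal ran from 4269.63 to 65222.7, near the 5339.8 to 65226.6 of the Cyp3a11 probe, with the highest spot of each saturated. How far the probes of these close paralogs read separate RNAs was not tested.

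Cyp3a44 is likewise known as a female-predominant form. Probe A_52_P571006 gave -1.86, -2.14 and -2.05 in null high-fat livers and -0.44, -1.62 and -0.89 in wild-type high-fat livers. It gave -2.45, -1.50 and -1.77 in null low-fat livers and 1.02, -1.44 and 0.22 in wild-type low-fat livers. Within each diet the null arrays lay under the wild-type arrays, at low fat by a gap between -1.50 and -1.44, whereas across diets the genotypes overlapped. Means were -2.01 ± 0.14 in null high-fat, -1.91 ± 0.49 in null low-fat, -0.98 ± 0.60 in wild-type high-fat and -0.07 ± 1.25 in wild-type low-fat livers (SD, n = 3 each). Of these, the null groups differed by less than their spread. The second Cyp3a44 probe, A_52_P366803, was well above background in the sample channel on 0 of 12 arrays and in the reference channel on 7 of 12, so it gives no level here.

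Cyp3a11, the main PXR target of adult mouse liver, had -2.63, -1.68 and -2.81 in null high-fat livers and -1.27, -1.25 and -1.30 in wild-type high-fat livers. It had -2.17, -2.08 and -2.08 in null low-fat livers and -0.27, -2.22 and -0.32 in wild-type low-fat livers. At high fat the printed values of the genotypes did not overlap, and at low fat the value of wild-type array 2 was the lowest of the 6. The means, lowest first, were -2.38 ± 0.61 in null high-fat, -2.11 ± 0.05 in null low-fat, -1.27 ± 0.02 in wild-type high-fat and -0.94 ± 1.11 in wild-type low-fat livers (SD, n = 3 each). The small SD of -1.27 ± 0.02 comes from 3 arrays, 1 of them saturated. Saturation touched this probe most: the reference channel was saturated on all 4 arrays of scan 2, wild-type low-fat array 2 among them, and the sample channel on wild-type low-fat array 1. A saturated reference makes the printed ratio an upper bound, and a saturated sample makes it a lower bound, so an order between arrays that rests on such a value is not settled.

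**Figure D1:**
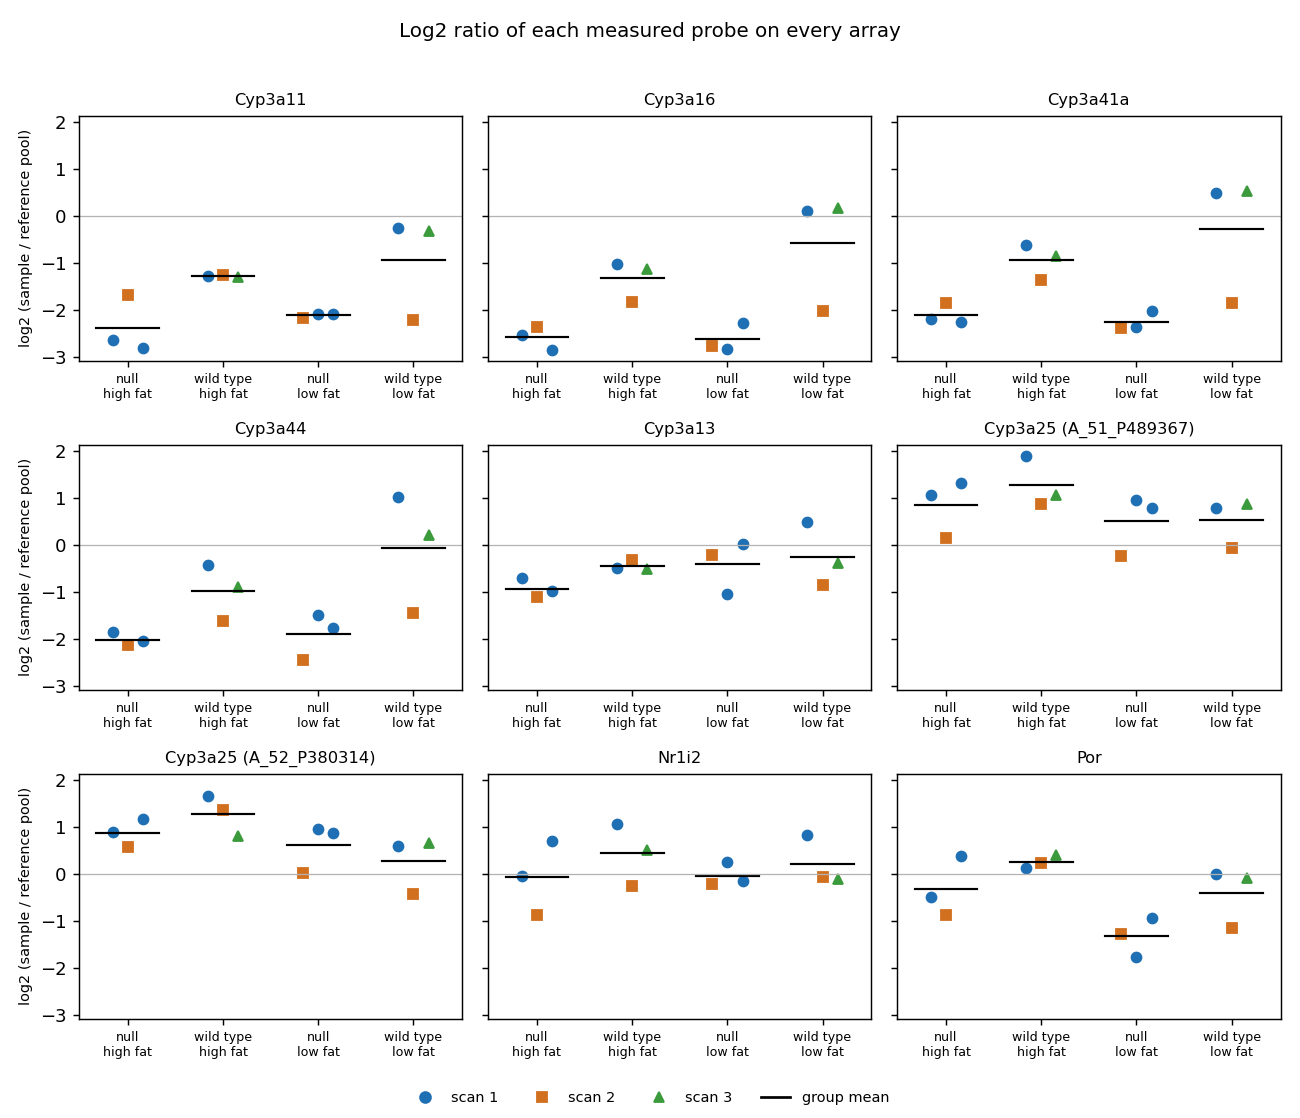
Log2 ratio of sample over the reference pool for the 9 measured probes (vertical axis), with 3 arrays in each of 4 groups (horizontal axis), marked by scan, and black bars for group means. Null arrays of Cyp3a16 and Cyp3a41a all lie below the wild-type arrays as plotted, which for Cyp3a41a is not settled because of a saturated reference spot. The scan 2 array of the wild-type low-fat group lies about 2 units under its group's other arrays for Cyp3a11, Cyp3a16, Cyp3a41a and Cyp3a44.

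The other genes of the set did not show this pattern. Cyp3a13, a form known from intestine as well as liver, had -0.70, -1.11 and -0.99 in null high-fat livers and -0.50, -0.31 and -0.51 in wild-type high-fat livers. Its values were -0.21, -1.05 and 0.02 in null low-fat livers and 0.50, -0.85 and -0.39 in wild-type low-fat livers. Only at high fat did the null arrays all lie under the wild-type arrays. The means were -0.93 ± 0.21 in null high-fat, -0.44 ± 0.11 in wild-type high-fat, -0.42 ± 0.56 in null low-fat and -0.25 ± 0.69 in wild-type low-fat livers (SD, n = 3 each), and the last 3 differed by less than their spread.

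Cyp3a25 was the Cyp3a gene whose levels stood above the pool. Probe A_51_P489367 read 1.07, 0.15 and 1.32 in null high-fat livers and 1.90, 0.87 and 1.07 in wild-type high-fat livers. In null low-fat livers it read -0.23, 0.95 and 0.79, and in wild-type low-fat livers 0.79, -0.06 and 0.88. The genotypes overlapped at both diets, and in each of the 4 groups the lowest array was that of scan 2. Probe A_52_P380314 read 0.90, 0.58 and 1.17 in null high-fat livers and 1.66, 1.36 and 0.80 in wild-type high-fat livers, and 0.02, 0.95 and 0.87 in null low-fat livers and 0.60, -0.43 and 0.65 in wild-type low-fat livers. The means of the first probe were 0.85 ± 0.62 in null high-fat, 1.28 ± 0.54 in wild-type high-fat, 0.51 ± 0.64 in null low-fat and 0.54 ± 0.52 in wild-type low-fat livers (SD, n = 3 each). Both probes put wild-type high-fat livers highest, and none of the neighbours in the order of the first probe differed by more than its spread.

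Nr1i2, the PXR gene itself, had log2 ratios of -0.03, -0.87 and 0.69 in null high-fat livers and 1.07, -0.26 and 0.51 in wild-type high-fat livers. It had -0.22, 0.26 and -0.15 in null low-fat livers and 0.83, -0.07 and -0.11 in wild-type low-fat livers. All 4 groups overlapped, and the scan 2 array was the lowest in every group but wild-type low fat. Its means, lowest first, were -0.07 ± 0.78 in null high-fat, -0.04 ± 0.26 in null low-fat, 0.22 ± 0.53 in wild-type low-fat and 0.44 ± 0.67 in wild-type high-fat livers (SD, n = 3 each), and no neighbours differed beyond that spread.

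Por, the electron donor, had -0.49, -0.87 and 0.38 in null high-fat livers and 0.12, 0.23 and 0.40 in wild-type high-fat livers. It had -1.27, -1.77 and -0.94 in null low-fat livers and 0.01, -1.15 and -0.09 in wild-type low-fat livers. The null low-fat livers were lowest of the 4 groups, with all 3 arrays under those of both high-fat groups, and only wild-type low-fat array 2 fell within their range. Means were -0.33 ± 0.64 in null high-fat, 0.25 ± 0.14 in wild-type high-fat, -1.33 ± 0.42 in null low-fat and -0.41 ± 0.64 in wild-type low-fat livers (SD, n = 3 each), and the null high-fat and wild-type low-fat groups differed by less than their spread.

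The first comparison set null against wild-type livers of the low-fat diet. Cyp3a16 differed by -2.05 on the log2 scale (SE 0.49, limma's adjusted p = 0.314). Cyp3a41a differed by -1.98 (SE 0.51, limma's adjusted p = 0.367) and Cyp3a44 by -1.84 (SE 0.52, limma's adjusted p = 0.441). Cyp3a11 differed by -1.18 (SE 0.45, limma's adjusted p = 0.625) and Por by -0.92 (SE 0.37, limma's adjusted p = 0.653). Of the 9 member probes 0 passed limma's adjusted threshold, which 0.0186% of all measured probes did. These 5 were lower at an unadjusted p under 0.05, against 3.42% of all probes, but the count was 4 with scan as a block, 2 with slide as a block (Cyp3a16 and Cyp3a44) and 0 with median centring in place of loess. The arrays of 3 (Cyp3a16, Cyp3a41a and Cyp3a44) did not overlap, against 4.18% of all probes. Null low-fat arrays 2 and 3 are alone on slide 1, which holds no other group. With slide as a block the value of Por moved to -0.42 (limma's adjusted p = 0.782) and that of Cyp3a11 to -1.01 (limma's adjusted p = 0.661). Median centring moved Cyp3a11 to -0.50 and Por to -0.29, and leaving out saturated spots moved Cyp3a11 to -1.76 (limma's adjusted p = 0.136) and Cyp3a41a to -1.60 (limma's adjusted p = 0.609). The median member difference was -0.92, and the median of all measured probes was 0.01. Differences for Cyp3a13 (-0.17, 95% interval -0.91 to 0.57), Nr1i2 (-0.26, interval -1.19 to 0.68) and Cyp3a25 (-0.03, interval -0.95 to 0.88, and 0.34, interval -0.42 to 1.11) had intervals that held 0, so changes of either sign within them were not told apart from none.

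This result turns on 1 array. Without wild-type low-fat array 2, limma gave -2.77 for Cyp3a16 (adjusted p = 0.00656), -2.76 for Cyp3a41a (adjusted p = 0.00418), -2.52 for Cyp3a44 (adjusted p = 0.0482) and -1.82 for Cyp3a11 (adjusted p = 0.0482). Leaving out wild-type low-fat array 1 in its place, the array bright for Kupffer and stellate markers, gave -1.70, -1.60, -1.29 and -0.84 for the same 4 genes in limma, with adjusted p from 0.298 to 0.564. Within scan 1, 2 null arrays against 1 wild-type array differed by -2.67 for Cyp3a16 and -2.65 for Cyp3a44, and by -2.69 for Cyp3a41a and -1.82 for Cyp3a11, whose wild-type spot was saturated in the sample channel, so that these last values understate the difference. Within scan 2, 1 null array against wild-type array 2 differed by -0.74 for Cyp3a16, -0.53 for Cyp3a41a and -1.005 for Cyp3a44. Cyp3a11 has no defined difference there, because the reference channel was saturated on both arrays. With scan as a block the 4 values were -1.91, -1.86, -1.92 and -1.05 (limma's adjusted p from 0.103 to 0.408), and with scan as a block and without array 2 they were -2.64, -2.69, -2.52 and -1.90, with limma's adjusted p from 0.0181 to 0.0567. The sign was negative for these 4 genes and for Por in each of 28 alternative fits.

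At high fat the same 4 genes were again lower in null livers, by smaller amounts. Cyp3a16 differed by -1.26 (SE 0.49), Cyp3a41a by -1.16 (SE 0.51), Cyp3a11 by -1.10 (SE 0.45) and Cyp3a44 by -1.03 (SE 0.52), each with limma's adjusted p = 1.00, and the interval of Cyp3a44 held 0. All 9 member probes were lower in null livers, with a median of -0.58, against -0.00 over all measured probes. Of the 9, 0 passed limma's adjusted threshold, against 0.00465% of all probes. Cyp3a16, Cyp3a11 and Cyp3a41a were lower at an unadjusted p under 0.05, against 1.14% of all probes. With scan as a block or slide as a block that count was 4, of which Cyp3a16 was the only 1 of these 3, beside Cyp3a44, Nr1i2 and Cyp3a25 (A_51_P489367), and with median centring it was 0. The arrays of 5 did not overlap (Cyp3a11, Cyp3a13, Cyp3a16, Cyp3a41a and Cyp3a44), against 3.86% of all probes. For Cyp3a11 and Cyp3a41a this is not settled, because the reference channel was saturated on wild-type high-fat array 2. Within scan 1, 2 null arrays against 1 wild-type array gave -1.68 for Cyp3a16, -1.61 for Cyp3a41a, -1.45 for Cyp3a11 and -1.52 for Cyp3a44. Within scan 2, with 1 array each, Cyp3a16 differed by -0.54 and Cyp3a44 by -0.52, and Cyp3a41a and Cyp3a11 have no defined difference, because their reference channel was saturated on both arrays. Leaving out saturated spots, limma gave -1.44 for Cyp3a11 (adjusted p = 0.231) and -1.49 for Cyp3a41a (adjusted p = 1.00). Por (-0.58), Nr1i2 (-0.51), Cyp3a13 (-0.49) and Cyp3a25 (-0.43 and -0.39) had intervals that held 0.

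Averaged over both diets, the null minus wild-type difference was -1.65 for Cyp3a16 (SE 0.35, limma's adjusted p = 0.121), -1.57 for Cyp3a41a (SE 0.36, adjusted p = 0.170), -1.43 for Cyp3a44 (SE 0.37, adjusted p = 0.236), -1.14 for Cyp3a11 (SE 0.32, adjusted p = 0.290) and -0.75 for Por (SE 0.26, adjusted p = 0.444). With limma 0 of 9 probes passed the adjusted threshold, against 0.247% of all probes. All 9 were lower, and these 5 had an unadjusted p under 0.05, against 3.83% of all probes, a count that was 7 with scan as a block, 4 with slide as a block and 0 with median centring. The arrays of Cyp3a16 and Cyp3a41a did not overlap between all 6 null and all 6 wild-type arrays, against 0.266% of all probes. Without wild-type low-fat array 2 the values were -2.02 for Cyp3a16, -1.96 for Cyp3a41a, -1.78 for Cyp3a44 and -1.46 for Cyp3a11, with limma's adjusted p of 0.00137, 0.0011, 0.0204 and 0.0114 in that order. Leaving out the saturated spots, limma gave -1.60 for Cyp3a11 with adjusted p = 0.0246. Within scan 1 (4 null and 2 wild-type arrays) Cyp3a16 differed by -2.17 and Cyp3a44 by -2.08, and within scan 2 (2 arrays each) by -0.64 and -0.76.

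**Figure D2:**
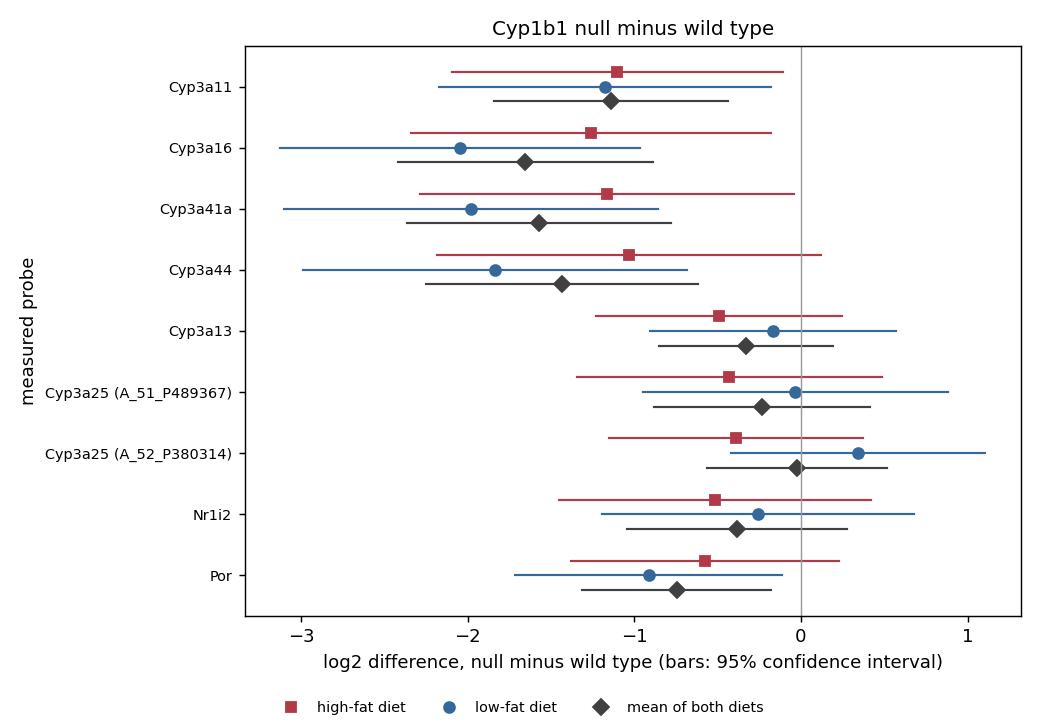
Log2 difference of null minus wild-type livers (horizontal axis) for the 9 measured probes (vertical axis) at high fat, at low fat and over both diets, with 95% confidence intervals from limma. The points of Cyp3a11, Cyp3a16, Cyp3a41a and Cyp3a44 lie at -1.03 or lower in each comparison, while those of Cyp3a13, Cyp3a25 and Nr1i2 have intervals that cross 0.

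The authors' deposited table holds these contrasts as log2 ratios. At low fat it gives -2.00 for Cyp3a16, -2.01 for Cyp3a41a, -1.77 for Cyp3a44, -1.13 for Cyp3a11 and -0.87 for Por in the authors' deposited table. At high fat the authors' deposited table gives -1.35, -1.27, -1.09, -1.05 and -0.53 for the same genes. On the member spots that table equals the difference of group means of the scanner software's processed ratios. The same processed ratios put through limma gave 2 of the 9 probes past the adjusted threshold over both diets, Cyp3a16 (adjusted p = 0.0354) and Cyp3a41a (adjusted p = 0.0451). Of all 21490 measured probes 283 passed with these ratios, against 53 in the main fit.

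The second question was the response to the high-fat diet, in wild-type and in null livers. In wild-type livers Cyp3a25 and Por had the most positive values. Cyp3a25 probe A_52_P380314 differed by 1.00 (SE 0.35) and probe A_51_P489367 by 0.74 (SE 0.42), high minus low fat, each with limma's adjusted p = 1.00. Por differed by 0.66 (SE 0.37), and Nr1i2 by 0.22 (SE 0.43). With limma 0 of 9 probes passed the adjusted threshold, against 0.00465% of all probes, 1 had an unadjusted p under 0.05 and was higher (Cyp3a25, A_52_P380314), against 1.88% of all probes, and the arrays of 2 did not overlap and were higher (that probe and Por), against 3.68% of all probes. The 4 genes low in null livers had negative values in wild-type livers: -0.92 for Cyp3a44, -0.74 for Cyp3a16, -0.66 for Cyp3a41a and -0.34 for Cyp3a11. Those values depend on wild-type low-fat array 2, without which they were -1.60, -1.46, -1.45 and -0.98, with limma's adjusted p from 0.359 to 0.640. Leaving out saturated spots moved the value of Cyp3a41a to -0.07 and that of Cyp3a11 to -0.96. Without array 2 the values of Cyp3a25 were 0.65 and 0.44 and that of Por was 0.29. At an unadjusted p under 0.05 in limma, 4 of the 9 probes were then lower and 0 higher. With scan as a block as well, 4 were lower and 2 higher. Of all measured probes 0 passed the adjusted threshold in either fit, and the share at the unadjusted p was not counted.

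Within scans the diet difference of the wild-type livers varied. With 1 array per diet in each scan, Cyp3a16 differed by -1.12, 0.20 and -1.31 in scans 1, 2 and 3, and Cyp3a44 by -1.46, -0.18 and -1.11. Cyp3a25 (A_52_P380314) differed by 1.06, 1.78 and 0.15, and Por by 0.12, 1.38 and 0.49. Cyp3a16 thus had both signs, whereas Cyp3a44 was negative and Cyp3a25 and Por were positive in all 3 scans. In scan 3, where neither had a saturated spot, Cyp3a11 differed by -0.97 and Cyp3a41a by -1.37. In scans 1 and 2 both genes had saturated spots in these pairs, and those values are not given.

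In null livers Por was the member with the largest value, 1.00 (SE 0.37, unadjusted p = 0.0190 and adjusted p = 1.00 in limma). Its arrays did not overlap and were higher at high fat, 1 of 9 probes, against 2.15% of all probes. It was also the 1 probe of 9 that was higher at an unadjusted p under 0.05, against 0.768% of all probes, and with limma 0 of 9 passed the adjusted threshold, against 0.00465%. Within scan 1, 2 arrays per diet differed by 1.30 for Por, and within scan 2, 1 array per diet differed by 0.40. Cyp3a16 (0.04), Cyp3a41a (0.15), Cyp3a44 (-0.11) and Cyp3a11 (-0.26) lay near 0 in null livers, with intervals as wide as -1.04 to 1.12 for Cyp3a16. Cyp3a13 (-0.52) and Cyp3a25 (0.34 and 0.27) also had intervals that held 0.

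Whether the genotype difference depended on diet was tested as the interaction, the difference at high fat minus that at low fat. It was 0.78 for Cyp3a16 (SE 0.69), 0.82 for Cyp3a41a (SE 0.72), 0.81 for Cyp3a44 (SE 0.74) and 0.07 for Cyp3a11 (SE 0.64), and limma's adjusted p was 1.00 for each. With limma 0 of 9 probes passed the adjusted threshold, as did 0% of all measured probes, and 0 of 9 had an unadjusted p under 0.05, against 0.856% of all probes. The intervals were wide, -0.74 to 2.31 for Cyp3a16, -0.77 to 2.40 for Cyp3a41a and -0.82 to 2.44 for Cyp3a44. In this fit a dependence on diet of that size could not be told apart from none. Without wild-type low-fat array 2 the values were 1.51 for Cyp3a16, 1.60 for Cyp3a41a, 1.49 for Cyp3a44 and 0.72 for Cyp3a11. At an unadjusted p under 0.05 in limma, 3 of the 9 probes were then higher and 0 lower. With scan as a block as well, 4 were higher and 0 lower. The count at the unadjusted p thus depended on that array. Of all measured probes 0 passed the adjusted threshold in either fit, and the share at the unadjusted p was not counted.

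**Figure D3:**
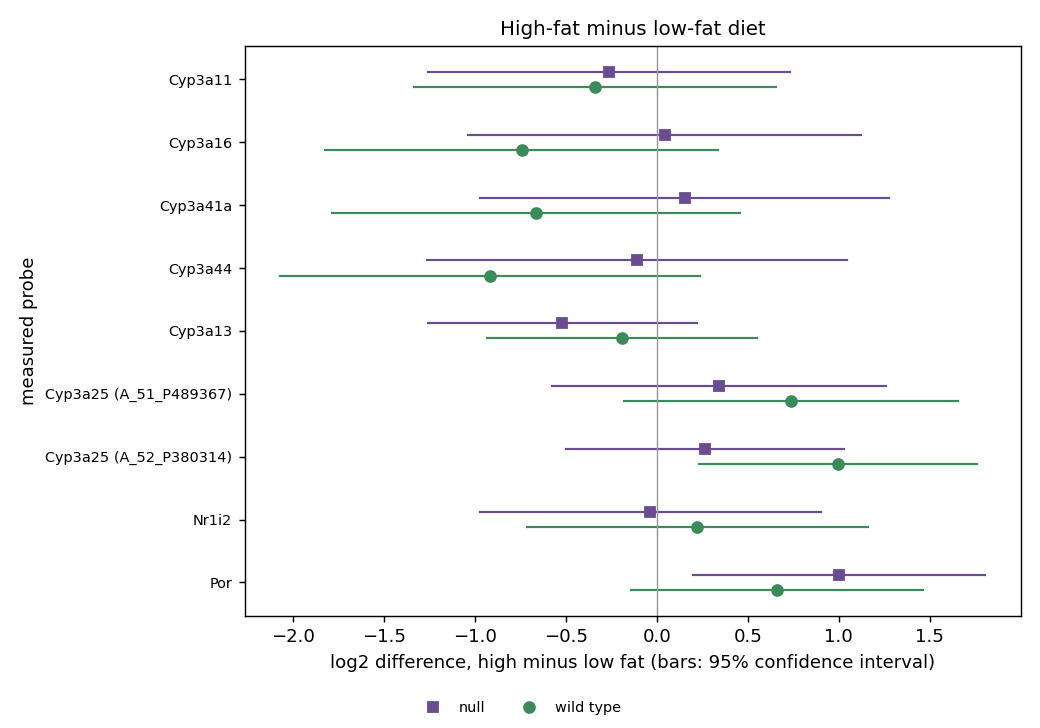
Log2 difference of high-fat minus low-fat livers (horizontal axis) for the 9 measured probes (vertical axis), in null and in wild-type livers, with 95% confidence intervals from limma. Por (1.00 in null and 0.66 in wild-type livers) and Cyp3a25 (A_52_P380314, 0.27 in null and 1.00 in wild-type livers) are on the positive side in both, and the intervals of most probes cross 0.

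Other genes of the pathway were counted from lists, each gene standing for its brightest measured probe. Among 34 measured targets of PXR or its relative CAR, 22 were lower and 12 higher in null livers at low fat, with a median of -0.40, against -0.01 over 14911 genes. At an unadjusted p under 0.05, 10 were lower and 1 was higher, against 3.92% and 3.57% of all genes. With limma 1 passed the adjusted threshold, against 0.0186% of all measured probes: Cyp2a5, the coumarin hydroxylase, fell by 2.25 (SE 0.26, adjusted p = 0.0345). At high fat 26 of the 34 were lower, with a median of -0.22, against 0.00 over all genes, and 0 passed in limma, with 8 lower and 1 higher at an unadjusted p under 0.05, against 1.37% and 1.27% of all genes. Over both diets Cyp2a5 and its close paralog Cyp2a4, a steroid hydroxylase, fell, each with -1.94 (limma's adjusted p = 0.00324 and 0.0312). Cyp2b9, a CAR target of female liver, differed by -2.86 (SE 0.83) at high fat, and Abcc3, an exporter of bile acid conjugates, by -2.17 (SE 0.56), with limma's adjusted p of 1.00 and 0.840.

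In response to the high-fat diet the same list leaned the other way. Of the 34 targets 24 were higher in null livers, with a median of 0.33, and 24 were higher in wild-type livers, with a median of 0.25, against 0.02 and 0.01 over all genes. In limma 0 passed at either genotype, with 4 higher at an unadjusted p under 0.05 in null livers, against 0.939% of all genes, and 6 in wild-type livers, against 1.86%. Cyp2a5 differed by 1.70 in null livers (SE 0.26, limma's adjusted p = 0.449) and by 1.07 in wild-type livers (SE 0.26, limma's adjusted p = 0.978). In wild-type livers Cyp2c54 had the value of 2.50 (SE 0.61) and Cyp2c29, a CAR target, that of 1.27 (SE 0.34), each with limma's adjusted p = 0.978. The comparisons share arrays, so the counts are not independent of each other.

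The partners of PXR and the supply of electrons and haem showed little difference by genotype. Among 33 partners and coregulators the median was -0.01 at high fat and -0.04 at low fat, and 0 passed limma's adjusted threshold in any of the 6 comparisons, with 1 higher and 2 lower at high fat and 1 higher at low fat at an unadjusted p under 0.05. Of all genes 1.27% were higher and 1.37% lower at high fat, and 3.57% were higher and 3.92% lower at low fat, so the low-fat count is under that share. Rxra, the partner PXR needs for DNA binding, differed by 0.48 (SE 0.19, limma's adjusted p = 0.653) between null and wild-type low-fat livers. Foxa3, a liver forkhead factor, differed by 0.56 over both diets (SE 0.16, limma's adjusted p = 0.292). Nr1i3, which encodes CAR, was among those with the smallest p for diet, with a high minus low fat difference of 1.49 in wild-type livers (SE 0.42, limma's adjusted p = 0.994). Dbp, a clock-controlled transcription factor, differed by 1.65 between diets in null livers and by 1.73 in wild-type livers, with limma's adjusted p of 1.00 and 0.978. Among 21 genes of cytochrome b5, ferredoxin and haem synthesis, which serve these enzymes beside Por, the median genotype difference was 0.01 at high fat and 0.04 at low fat, and 0 passed in limma, with 0 at high fat and 1 at low fat at an unadjusted p under 0.05. Cyb5a, cytochrome b5, which can pass an electron to CYP3A enzymes, was higher at high fat by 0.65 in null livers (SE 0.17) and 0.58 in wild-type livers (SE 0.17), with limma's adjusted p = 1.00 in each. Its arrays did not overlap between the diets and were higher at high fat in both genotypes, as were those of 2.15% of all probes in null livers and 3.68% in wild-type livers.

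Sex-biased liver genes were counted because Cyp3a16, Cyp3a41a and Cyp3a44 belong to the female-biased forms in mouse. These counts restate a pattern already known for these samples. Of 16 measured female-biased genes, 14 were lower in null livers at low fat, with a median of -1.15, and 15 were lower at high fat, with a median of -0.75. At an unadjusted p under 0.05, 9 were lower at low fat, against 3.92% of all genes, and at high fat 10 were lower and 1 was higher, against 1.37% and 1.27%, and 0 passed limma's adjusted threshold at either diet. Over both diets 3 passed, against 0.247% of all measured probes: Cyp4a10 (-3.36), Cyp4a14 (-5.24) and Cyp2a4 (-1.94), with limma's adjusted p of 0.00404, 0.00404 and 0.0312. Cyp4a10 and Cyp4a14 are fatty acid omega-hydroxylases, and Cyp2a4 is on the PXR and CAR list too. Of 26 male-biased genes, 26 were higher in null livers at low fat, with a median of 1.10, and 23 at high fat, with a median of 0.62. At an unadjusted p under 0.05, 12 were higher at low fat and 9 at high fat, against 3.57% and 1.27% of all genes. With limma C8b and Moxd1 passed the adjusted threshold at low fat, and C8b at high fat. Over both diets 4 passed in limma and were higher, C8b, Moxd1, Nudt7 and Selenbp2, against 0.247% of all measured probes.

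On single arrays, wild-type low-fat array 2 was low for the Cyp3a genes and for the female-biased list together. Its female-biased median was -0.67, against 0.23 and 0.17 on arrays 1 and 3 of its group, and its male-biased median was 0.80, against -0.11 and 0.25. In null livers the female-biased medians ran from -1.51 to -0.44 at high fat and from -1.37 to -0.79 at low fat, and in wild-type livers from -0.08 to 0.26 at high fat and from -0.67 to 0.23 at low fat. Male-biased medians ran from 1.22 to 1.47 in null high-fat and from 0.56 to 0.63 in wild-type high-fat livers, and from 1.21 to 1.40 in null low-fat and from -0.11 to 0.80 in wild-type low-fat livers. Array 2 was thus the nearest of the wild-type low-fat arrays to the null arrays for both lists, and whether this bears on its Cyp3a values was not tested.

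Genes of the growth hormone and STAT5 axis, which sets sex-biased expression in rodent liver, did not lean one way. Of 13 measured, 9 were higher in null livers at high fat and 7 at low fat, with medians of 0.15 and 0.06. In limma 0 passed. At an unadjusted p under 0.05, 1 was higher at high fat and 0 at low fat, against 1.27% and 3.57% of all genes. At that p 0 were lower at either diet, against 1.37% and 3.92%. Socs2, a feedback inhibitor of that axis, differed by 1.99 at high fat (SE 0.83, limma's adjusted p = 1.00). Among 19 steroid-metabolising genes of liver outside the members, 13 were higher and 6 lower in null livers at high fat, with a median of 0.24. At low fat 16 were higher and 3 lower, with a median of 0.45. Of all genes 49.3% and 50.9% were lower at these diets. The list shares Cyp2d9, Cyp2f2, Cyp7b1 and Hsd3b5 with the male-biased list and Cyp17a1 with the female-biased list. At an unadjusted p under 0.05, 3 were higher and 1 lower at high fat, against 1.27% and 1.37% of all genes. At low fat 7 were higher and 1 lower, against 3.57% and 3.92%. Over both diets Hsd17b2 (1.11, limma's adjusted p = 0.006) and Hsd3b3 (0.87, limma's adjusted p = 0.0263) rose, where 0.247% of all measured probes passed.

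Markers of other cells varied beside these results. Summed Kupffer marker signal of 12 genes ran from 27778.5 to 34301.4 in null high-fat and from 16083 to 30253.2 in wild-type high-fat livers, and from 25620.8 to 29900.8 in null low-fat and from 16256.2 to 70830.5 in wild-type low-fat livers. Summed stellate marker signal of 11 genes ran from 10316.5 to 13638.7 in null high-fat and from 10751.7 to 14799 in wild-type high-fat livers, and from 10620.6 to 13711 in null low-fat and from 11681.9 to 45062 in wild-type low-fat livers. For null minus wild type the median of the Kupffer markers was 0.20 at high fat and -0.25 at low fat, and that of the stellate markers -0.15 and -0.67, and in limma 0 of either list passed. At an unadjusted p under 0.05 there were 0 Kupffer markers at either diet, and 1 stellate marker was lower and 1 higher at low fat. Of all genes 3.92% were lower and 3.57% higher at that p at low fat, and 1.37% and 1.27% at high fat. The 6 measured bile duct markers were all lower in null livers at low fat, with a median of -0.22 and 1 of them lower at an unadjusted p under 0.05, and at high fat 3 were lower and 3 higher. Of all genes 50.9% were lower at low fat and 49.3% at high fat. The summed signal of the bile duct markers ran from 3205.46 to 3939.24 in null high-fat and from 3488.21 to 4137.91 in wild-type high-fat livers. It ran from 2835.53 to 4358.57 in null low-fat and from 3163.87 to 18025.9 in wild-type low-fat livers, array 1 again the highest. Endothelial markers had medians of 0.13 at high fat and -0.02 at low fat, and lymphocyte markers 0.05 and -0.32, with 0 of either at an unadjusted p under 0.05. The 10 hepatocyte markers had medians of -0.05 at high fat and 0.07 at low fat for null minus wild type, and with limma 0 of them passed, with 0 at an unadjusted p under 0.05. The part of these cells in the Cyp3a values was not tested.

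**Figure D4:**
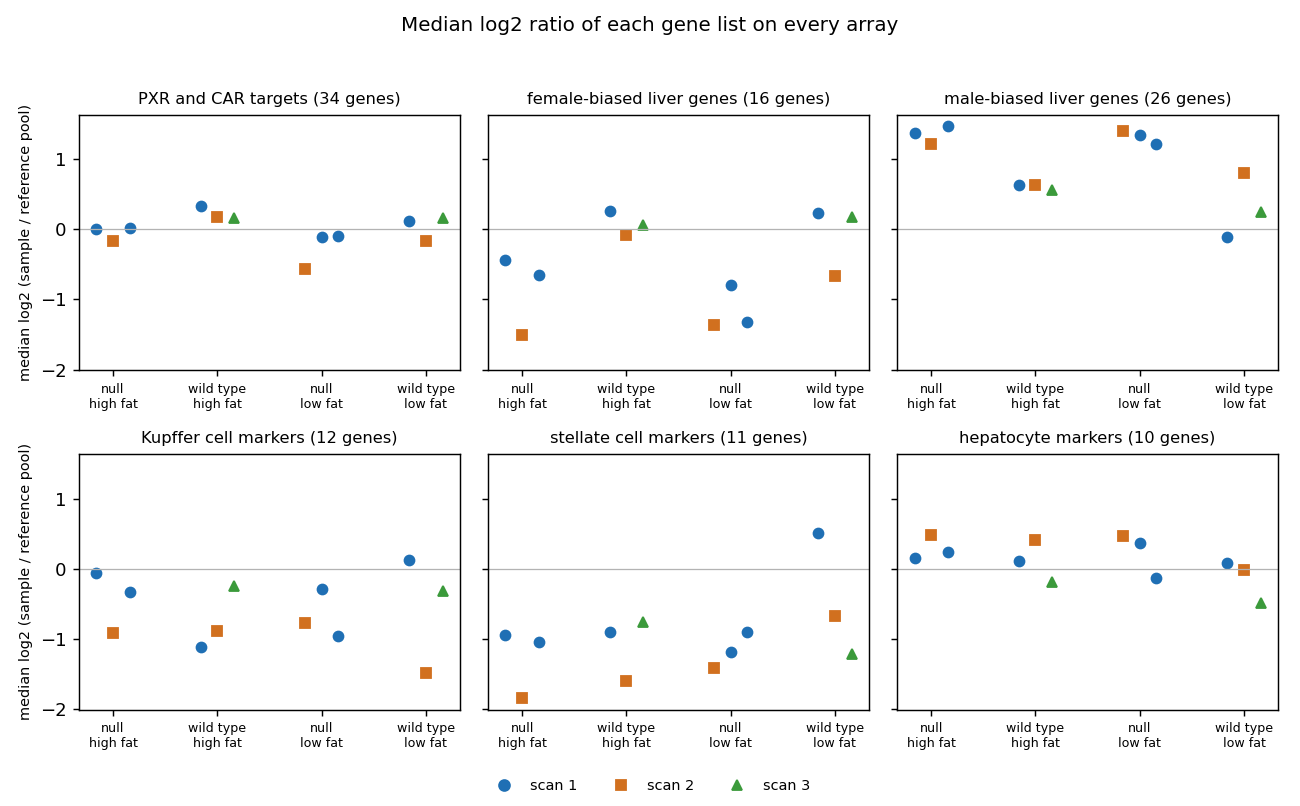
Median log2 ratio of sample over pool for each list (vertical axis) on each of the 3 arrays of the 4 groups (horizontal axis), marked by scan. Female-biased medians of wild-type low-fat arrays split into -0.67 and about 0.2, and the stellate median of 1 wild-type low-fat array, 0.50, stands above those of all other arrays.

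Among themselves, Cyp3a11, Cyp3a16, Cyp3a41a and Cyp3a44 had higher Pearson r with each other than any other pair of different members had. Over the 12 arrays the log2 ratios of Cyp3a16 and Cyp3a41a had a Pearson r of 0.995 (Spearman rho 0.965), those of Cyp3a16 and Cyp3a44 0.941 (rho 0.825), and those of Cyp3a11 and Cyp3a41a 0.938 (rho 0.818). With the group means taken away, r was 0.989, 0.850 and 0.898 for these pairs. Within groups the spread was widest in wild-type low-fat livers. The SD there was 1.25 for Cyp3a16, against 0.44 or less in the other groups, and 1.36 for Cyp3a41a, against 0.38 or less. These r values include wild-type low-fat array 2 and the saturated spots of Cyp3a11 and Cyp3a41a, and r without them was not computed. The loosest pair of the set was Cyp3a11 with Cyp3a44, with r of 0.856 (rho 0.685), and 0.690 with the group means taken away. That last value was under the 0.725 and 0.728 of Cyp3a44 with the Cyp3a25 probes, so the set did not stand apart within groups. The arrays share scans and the probes may share paralog signal, so these values are given as a description. The probes of Cyp3a25 differed in how they went with Nr1i2: r was 0.705 for A_51_P489367 and 0.418 for A_52_P380314, and with Cyp3a11 it was 0.139 and 0.109. With the group means taken away, A_52_P380314 had nearly the same r with Nr1i2, 0.469, as with Cyp3a11, 0.444. The pair of Cyp3a25 probes had r of 0.880 with each other. Por had its highest r among members, 0.602, with Cyp3a25 probe A_51_P489367, and with the group means taken away its highest was 0.645, with Cyp3a13.

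Outside the set, the genes whose 12 log2 ratios were most like those of each member were looked for among 12853 genes. Plin2, a coat protein of lipid droplets, was the closest to Cyp3a41a (r = 0.957) and to Cyp3a11 (r = 0.909). Cyp3a16 was closest to Grpel2, a cochaperone of mitochondrial import (r = 0.943), and to the stress cytokine gene Gdf15 (r = 0.938). For Cyp3a44 the closest were Zscan2 (r = 0.951) and Etnppl, a phosphoethanolamine lyase (r = 0.950). Cyp3a13 was closest to the early response gene Egr1 (r = 0.920), Nr1i2 to Aen (r = 0.940) and Por to the mitophagy receptor gene Bnip3 (r = 0.944). The Cyp3a25 probes were closest to Lypla1 (r = 0.944) and Cd1d2 (r = 0.961), and Ugt1a1, the bilirubin glucuronosyltransferase and a PXR and CAR target, was next for the second of them (r = 0.936). These are the highest of many values over 12 arrays that fall into groups, and they carry no test.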

How the data were processed

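RNA of 12 liver samples was measured on Agilent two-colour arrays. The deposited intensity values are the mean brightness and local background of each spot in both colours, and Agilent's Feature Extraction wrote them, per the file headers, which give 9.1.3.1 as its spot analysis version. The deposited log10 ratios of Cy5 over Cy3 come from the same software's background-subtracted, dye-normalised signals, per the file headers. The authors' deposited table gives each contrast as a log2 ratio, and the submitters' processing notes name limma without a version.

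From the intensities, limma 3.58.1 in R 4.3.3 corrected background (normexp, offset 50) and normalised log2 ratios of Cy3 over Cy5 within arrays (loess). It left out 120 non-uniform spots and averaged repeated spots of 245 probes. One fit with a mean for each group held all 12 arrays (residual degrees of freedom 8, prior 3.07), p-values were adjusted by Benjamini-Hochberg over the 21490 measured probes, and the threshold was 0.05. Having only 3 arrays in a group limits the precision. Probes, not genes, were tested, since Cyp3a genes are close paralogs. The steps were tested on simulated data. Promoters were aligned with Biopython 1.88. Named genes were all members, list genes past the threshold or else up to 3 with the smallest p, and the 3 genes most like each member; selected ones are printed. The members and the 13 lists were chosen with earlier results of these data known. Same-numbered replicates had r from -0.58 to 0.56 in their deviations, so the numbers do not pair the arrays. Alternatives covered background, normalisation, filters, channel, batch and left-out arrays.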

Additional observations from a re-analysis of the deposited data

How the results depend on the processing

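Limma's count of member probes past the adjusted threshold was 0 of 9 in all 6 comparisons and stayed 0 under the replicate block. In null against wild-type livers at low fat it ranged from 0 to 4 when arrays were left out in turn, with 4 only without wild-type low-fat array 2, and was 3 with scan as a block and that array left out, an alternative chosen after seeing the data. Of all 21490 measured probes 28 passed without array 2 and 32 with scan as a block as well, against 4 in the main fit. Over both diets it ranged from 0 to 4 when arrays were left out, with 4 only without the same array. There it was 2 with Agilent's processed signals, 1 with the sample channel alone, 1 with saturated spots left out and 4 with scan as a block and no wild-type low-fat array 2, the last pair chosen after seeing the data. Over all probes tested, 283, 412, 53 and 107 passed in these fits, in that order. In the main fit 53 passed, and without wild-type low-fat array 2 alone 65. The cause was not tested. The difference of Cyp3a13 over both diets turned to 0.11 under median centring. Of 1488 alternative values for single probes, 1415 kept their direction and side of the threshold, 19 newly passed it, 53 changed the sign of a difference smaller than its SE and 1, the Cyp3a13 value above, that of a larger one. Signal limited the second Cyp3a44 probe, which was not well above background in any sample channel, and saturation limited Cyp3a11 and Cyp3a41a.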
